A study of Mus musculus with 18 samples.

Results

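The proteasome genes described here are the 3 catalytic subunits that interferons induce, Psmb8 (β5i, LMP7), Psmb9 (β1i, LMP2) and Psmb10 (β2i, MECL-1), the 2 subunits of the PA28αβ activator, Psme1 (PA28α) and Psme2 (PA28β), and the 3 constitutive catalytic subunits that the induced ones replace, Psmb5 (β5), Psmb6 (β1) and Psmb7 (β2). They were chosen by gene symbol, and all 8 were found among 55487 listed genes and were among the 17338 genes that passed the filter on low counts. The RNA came from pancreatic islets of C57BL/6 mice, taken from males aged 12 weeks, which were cultured whole with 5 ng/mL interferon gamma (IFNγ) for 20 h or as untreated controls, then dissociated and sorted by flow cytometry. The 6 groups were IFNγ-treated and control alpha cells (CD24-low, CD71-negative), IFNγ-treated and control beta cells (CD24-low, CD71-positive), and IFNγ-treated and control delta cells (CD24-high), all from the Epcam-positive fraction negative for CD45, TER119 and CD31. Each group had 3 libraries, 18 in all, and no transgene or mutation is named for any group. Because whole islets were treated, every cell type was exposed beside the others, and a sorted fraction stands for its gate. In such bulk fractions, fewer cells of a type and less RNA per cell cannot be told apart.

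The proteasome is the barrel-shaped protease that degrades ubiquitin-tagged proteins. Its core holds a pair of rings of α subunits around a pair of rings of β subunits, and the β1, β2 and β5 subunits do the cutting. Under IFNγ, newly made β1i, β2i and β5i can be built into new cores in place of these and form the immunoproteasome, and PA28αβ caps the core and favours the release of short peptides. These peptides are carried into the endoplasmic reticulum by the TAP transporter and are bound there by MHC class I, which in islet cells matters because CD8 T cells that recognise such complexes attack beta cells in type 1 diabetes. The transcription of the inducible subunits is known to depend on IRF1, and the inducible catalytic genes Psmb8 and Psmb9 lie in the MHC class II region beside Tap1 and Tap2.

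The promoter windows below are shown for the interferon-type motif matches found among the 8 genes, for the stretch that Psmb9 shares with Tap1 and for a constitutive gene beside them. They are RefSeq windows of 300 bases (250 before and 50 after the annotated start, GRCm38.p6), and 7 of the 8 genes had such a window, Psme2 with 2 of them. Capitals in Psmb8 mark its match to the gamma-activated motif TTCNNNGAA (GAS), at -97 from the start. Capitals in Psme1 mark its match to the interferon response core (ISRE), GAAA followed after any 2 bases by another GAAA, read on the opposite strand and starting at +9 (base 0 being the start itself). Capitals in Psmb9 mark the stretch between its start and the start of Tap1, which is transcribed in the opposite direction, and capitals in Psmb5 mark its 2 matches to the antioxidant-type core TGANNNNGC.
Psmb8, chr17:34197945-34198244, plus strand: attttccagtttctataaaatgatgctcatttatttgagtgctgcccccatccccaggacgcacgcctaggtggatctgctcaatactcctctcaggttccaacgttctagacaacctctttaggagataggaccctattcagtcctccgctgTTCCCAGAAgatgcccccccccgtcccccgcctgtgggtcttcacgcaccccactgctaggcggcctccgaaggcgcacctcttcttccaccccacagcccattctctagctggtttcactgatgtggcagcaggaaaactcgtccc
Psme1, chr14:55578244-55578543, plus strand: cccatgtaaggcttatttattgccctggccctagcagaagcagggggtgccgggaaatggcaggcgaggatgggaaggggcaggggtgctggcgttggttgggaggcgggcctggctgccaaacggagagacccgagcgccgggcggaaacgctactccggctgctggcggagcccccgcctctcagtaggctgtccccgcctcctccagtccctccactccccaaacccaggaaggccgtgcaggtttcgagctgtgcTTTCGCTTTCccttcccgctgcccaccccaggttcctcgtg
Psmb9, chr17:34187281-34187580, minus strand: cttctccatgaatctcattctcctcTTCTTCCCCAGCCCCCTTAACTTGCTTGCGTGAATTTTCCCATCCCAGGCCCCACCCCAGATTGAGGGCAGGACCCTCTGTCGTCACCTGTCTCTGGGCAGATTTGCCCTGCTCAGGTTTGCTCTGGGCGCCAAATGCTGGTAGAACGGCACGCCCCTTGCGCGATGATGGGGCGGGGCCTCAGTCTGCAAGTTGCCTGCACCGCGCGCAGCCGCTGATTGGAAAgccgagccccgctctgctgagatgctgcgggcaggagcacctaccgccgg
Psmb5, chr14:54617946-54618245, minus strand: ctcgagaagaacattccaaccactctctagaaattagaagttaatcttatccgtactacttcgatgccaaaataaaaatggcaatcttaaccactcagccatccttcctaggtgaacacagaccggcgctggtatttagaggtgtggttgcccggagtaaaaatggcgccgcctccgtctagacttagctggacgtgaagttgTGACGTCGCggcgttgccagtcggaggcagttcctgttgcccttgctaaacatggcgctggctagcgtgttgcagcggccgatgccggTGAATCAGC

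The GAS letters, read on both strands, were found in 8.30% of the 32851 promoter windows of this table and among the 8 genes in the window of Psmb8 alone. The ISRE letters were found in 3.44% of all windows and among the 8 genes in that of Psme1 alone. The windows of Psmb9, Psmb10, Psme2, Psmb5 and Psmb6 held neither. TGANNNNGC is short and was found in 41.3% of all windows. It was found in those of Psmb8, Psmb9, Psme2, Psmb5 and Psmb6 and not in those of Psmb10 and Psme1. The starts of Psmb9 and Tap1 lie 226 bases apart, so their windows share 275 bases. A match of letters is a description of the sequence and was not tested for binding.

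In the GENCODE M21 annotation of GRCm38, Psmb8 (ENSMUSG00000024338) spans chr17:34197721-34201454 and Psmb9 (ENSMUSG00000096727) chr17:34181987-34187764. Psme1 (ENSMUSG00000022216, chr14:55578123-55581529) and Psme2 (ENSMUSG00000079197, chr14:55587441-55591113) are also close neighbours, on opposite strands. Psmb10 (ENSMUSG00000031897) spans chr8:105935735-105938444, Psmb5 (ENSMUSG00000022193) chr14:54614119-54618022, Psmb6 (ENSMUSG00000018286) chr11:70525367-70527858 and Psmb7 (ENSMUSG00000026750) chr2:38588036-38644087. Some shares of reads are uncertain. Psmb7 overlaps Nek6 on the opposite strand, and their transcripts share 255 bases. Nek6 was given 2126 expected counts over all libraries beside 5371 for Psmb7. The transcripts of Psmb9 and Tap1 share 212 bases on opposite strands. Psmb8 overlaps the antisense gene Gm20496 (5.03 expected counts over all libraries), and Psmb10 overlaps an antisense gene. The sources used here do not say if reads were counted by strand. Psme2 is 99.4% identical over 794 bases to Psme2b, which was given 656 expected counts over all libraries beside 7448 for Psme2, and Psmb5 is 98.9% identical over 796 bases to Gm3375, which was given 23.9 beside 2505.

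Library totals lay between 6128845 and 11531734 expected counts. The sorted fractions carried their hormone genes: Gcg was at 74633 CPM or more in every alpha library, Ins2 at 17515 CPM or more in every beta library and Sst at 9561 CPM or more in every delta library, where CPM is the count scaled to the library's size with TMM factors. Hormone genes of the other fractions were present unevenly. Ins2 was at 6503 CPM in alpha control 2 and at 291 to 1728 CPM in the other alpha libraries. Gcg ran from 154 CPM in beta control 3 to 2977 CPM in beta control 2. In delta libraries it ran from 43.0 CPM in delta IFNγ 1 to 2263 CPM in delta control 3. The part of this in the results was not tested. Some libraries stood apart. Alpha IFNγ 1 and 3 were shifted to genes of low GC content (low minus high GC 1.01 and 0.88 on the log2 scale), while alpha IFNγ 2 (-0.56) and the alpha controls (-0.77 to -0.48) were shifted the other way. Beta control 3 carried a file name with papain in place of CD71, and the sources used here do not say if it was handled differently. All 3 delta IFNγ libraries (0.81, 0.43 and 0.87) and delta control 3 (0.87) were shifted to low GC, unlike delta controls 1 and 2 (-0.11 and -0.06). Ribosomal RNA genes took 5.00% to 36.7% of counts. The file names carried 9 dates, delta cells never had both treatments on 1 date, and 5 libraries were alone on theirs.

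Psmb8 encodes β5i, the induced chymotrypsin-like subunit. It was at 53.8, 69.6 and 49.1 CPM in IFNγ-treated alpha cells, against 7.12, 7.09 and 8.44 CPM in control alpha cells. Beta cells had 111, 120 and 152 CPM with IFNγ, against 15.8, 12.3 and 7.46 CPM in controls. Delta cells had 53.9, 102 and 105 CPM with IFNγ, against 9.35, 14.3 and 8.72 CPM in controls. Every treated library of a cell type lay above every control of it, and the lowest treated library of all, alpha IFNγ 3, was still above the highest control of all, beta control 1. The log2 fold changes were 2.92 (SE 0.30) in alpha, 3.42 (SE 0.30) in beta and 3.02 (SE 0.30) in delta cells, with adjusted p of 4.9e-06, 4.16e-07 and 1.65e-06 (edgeR quasi-likelihood test, Benjamini-Hochberg adjustment over all 17338 genes, as for every adjusted p of a gene here). Its order of mean level was beta, delta and alpha cells with IFNγ, then beta, delta and alpha controls. The ranges of treated delta and alpha cells overlapped, and so did those of control beta and delta cells.

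Psmb9 encodes β1i, which in the immunoproteasome lowers cutting after acidic residues. It was at 22.4, 47.4 and 28.7 CPM in IFNγ-treated alpha cells, against 5.23, 4.42 and 3.53 CPM in control alpha cells. In beta cells it was at 78.7, 74.2 and 69.5 CPM with IFNγ, against 5.70, 4.57 and 2.44 CPM in controls. In delta cells it was at 26.4, 52.1 and 42.2 CPM with IFNγ, against 5.25, 5.84 and 1.97 CPM in controls. The controls were thus at a few CPM in every cell type, and no treated library overlapped a control. Its log2 fold change in beta cells, 4.12 (SE 0.40, adjusted p = 1.26e-06), was the largest among the 8 genes in any cell type, except that with date as a term Psmb9 had 4.29 in delta and 3.94 in beta cells. The log2 fold change was 2.91 (SE 0.38, adjusted p = 0.000106) in alpha and 3.21 (SE 0.38, adjusted p = 2.16e-05) in delta cells. Tap1, the transporter gene read from the other side of the same window, had log2 fold changes of 2.94 (SE 0.28) in alpha, 4.60 (SE 0.30) in beta and 4.34 (SE 0.30) in delta cells.

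Psmb10 encodes β2i, the induced trypsin-like subunit. It was at 25.8, 61.7 and 29.8 CPM in IFNγ-treated alpha cells, against 16.1, 14.8 and 20.2 CPM in control alpha cells. Beta cells had 98.1, 99.1 and 114 CPM with IFNγ, against 20.5, 19.6 and 8.98 CPM in controls. Delta cells had 47.7, 63.1 and 70.9 CPM with IFNγ, against 15.8, 17.2 and 7.89 CPM in controls. The beta and delta groups were far apart, while in alpha cells the lower 2 treated libraries were close above the highest control. Psmb10 rose in beta cells by a log2 fold change of 2.66 (SE 0.36, adjusted p = 0.000106) and in delta cells by 2.15 (SE 0.35, adjusted p = 0.00106). In alpha cells the log2 fold change of 1.19 (SE 0.34, adjusted p = 0.118) did not pass.

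Psmb10 differed between treated alpha libraries of different GC balance, and the part of GC content in this was not tested. Psmb10 had the highest GC content of the 8 genes, 58.3%, and Psmb7 the lowest, 43.1%. Of the treated alpha libraries, the 2 shifted to low GC had 25.8 and 29.8 CPM of Psmb10, and alpha IFNγ 2, shifted to high GC like the controls, had 61.7 CPM. Alpha IFNγ 2 was also the highest treated alpha library for the other inducible genes, among them Psme2 of 50.9% GC (75.6 against 38.7 and 49.6 CPM). Delta IFNγ 3, shifted to low GC (0.87), had the highest Psmb10 of the treated delta libraries, 70.9 CPM. With an offset for each library's GC trend, the log2 fold change in alpha cells was 1.74 (adjusted p = 5.96e-05 in edgeR). It was also past the threshold with the file-name date as a term (1.48, adjusted p = 0.00769) and in DESeq2 (1.19, adjusted p = 0.0255). Between the alpha libraries that share a date, Psmb10 was higher by 1.94 on the log2 CPM scale in alpha IFNγ 2 than in alpha control 1, and by 1.00 in alpha IFNγ 3 than in alpha control 2.

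**Figure D1:**
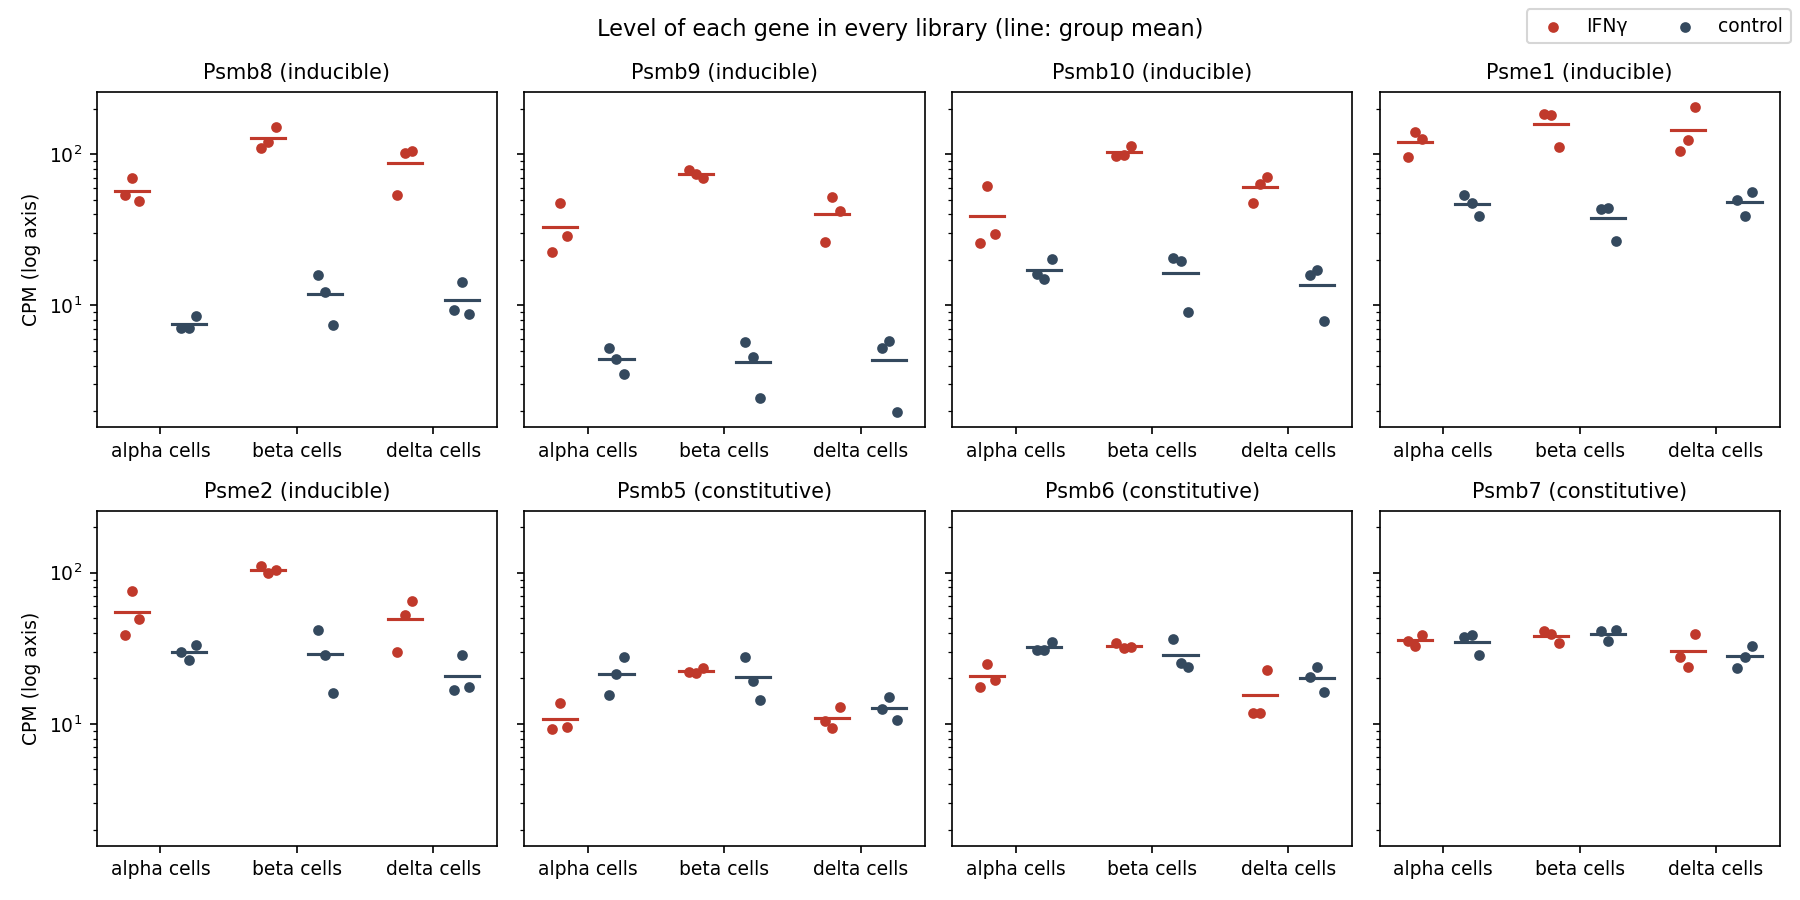
Level of each of the 8 genes in CPM (log axis) in every library, with IFNγ libraries left of the control libraries of the same cell type and a line at the group mean of 3 libraries. The 5 inducible genes stand above their controls in every cell type, Psmb9 in beta cells by the most (74.1 against 4.23 CPM in the means), while Psmb7 stays between 23.5 and 42.0 CPM throughout.

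Psme1 and Psme2 encode the α and β subunits of PA28, which assemble into a ring that opens the end of the core. Psme1 was at 96.2, 140 and 126 CPM in IFNγ-treated alpha cells, against 54.1, 47.6 and 39.2 CPM in control alpha cells. In beta cells it was at 186, 182 and 111 CPM with IFNγ, against 43.3, 44.4 and 26.5 CPM in controls, and in delta cells at 104, 124 and 205 CPM with IFNγ, against 49.9, 38.9 and 56.0 CPM in controls. Groups did not overlap within any cell type, but the 3 treated groups overlapped one another, as did the 3 control groups. Psme1 rose by log2 fold changes of 1.37 (SE 0.28, adjusted p = 0.012) in alpha, 2.07 (SE 0.28, adjusted p = 0.000128) in beta and 1.58 (SE 0.28, adjusted p = 0.00225) in delta cells. Leaving out alpha control 2 (1.38, adjusted p = 0.0679) or alpha control 3 (1.25, adjusted p = 0.112) ended the alpha call, and date as a term ended the delta call (1.33, adjusted p = 0.147).

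Psme2 was at 38.7, 75.6 and 49.6 CPM in IFNγ-treated alpha cells, against 29.9, 26.6 and 33.2 CPM in control alpha cells. In beta cells it was at 111, 98.8 and 104 CPM with IFNγ, against 41.7, 28.7 and 16 CPM in controls. In delta cells it was at 30.1, 52.5 and 64.9 CPM with IFNγ, against 16.7, 28.4 and 17.4 CPM in controls. The gap was wide in beta cells alone, and the lowest treated delta library was close to the highest delta control. With IFNγ, Psme2 rose in beta cells by 1.86 (SE 0.33, adjusted p = 0.00327) and did not pass in delta (1.24, SE 0.33, adjusted p = 0.0822) or alpha cells (0.87, SE 0.32, adjusted p = 0.166). In delta cells it was past the threshold with the GC offset (1.35, adjusted p = 0.0128), in DESeq2 (1.27, adjusted p = 0.00993), and in edgeR without delta IFNγ 1 (1.49, adjusted p = 0.0294), without beta control 3 (1.24, adjusted p = 0.0389) or without alpha IFNγ 2 (1.24, adjusted p = 0.0498). In alpha cells it passed with date as a term (1.08, adjusted p = 0.00873).

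Counted together, 3 of the 5 inducible genes were higher with IFNγ in alpha cells, where 0.940% of all tested genes were, 5 of 5 in beta cells, where 1.06% were, and 4 of 5 in delta cells, where 1.21% were. The replicate numbers as a block left these counts at 3, 5 and 4. All 5 had every treated library above every control in each cell type, which held for 9.62% of tested genes in alpha, 6.49% in beta and 7.71% in delta cells. Immune cells carry the immunoproteasome without IFNγ, so their markers were read beside these results. The 15 genes of an immune list summed to 3.77 to 4.71 CPM in IFNγ-treated and 5.81 to 7.09 CPM in control alpha cells, to 7.94 to 9.21 CPM in IFNγ-treated and 5.48 to 7.69 CPM in control beta cells, and to 8.49 to 14.3 CPM in IFNγ-treated and 8.82 to 17.8 CPM in control delta cells. Ptprc, the gene of CD45, was at 0 in 15 libraries and at most at 0.418 CPM. In delta cells the summed delta identity list was lower with IFNγ (11228 to 16751 CPM) than in controls (16952 to 37724 CPM), and the acinar list ran from 681 to 2809 CPM with IFNγ and from 1710 to 3668 CPM in controls. Pecam1, the gene of the gated endothelial marker CD31, was at 2.05 to 3.62 CPM in IFNγ-treated and 0.477 to 1.45 CPM in control delta cells. The endothelial list of 8 genes, Pecam1 among them, overlapped there, at 4.67 to 11.3 CPM with IFNγ and 4.88 to 6.27 CPM in controls. The acinar list ran from 2.49 to 220 CPM in IFNγ-treated and from 0.456 to 2647 CPM in control beta cells, and the 6 sort gate genes summed to 260 to 354 CPM in IFNγ-treated and 202 to 249 CPM in control alpha cells. The part of these in the results was not tested.

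None of the constitutive subunits passed the test. Psmb5, which encodes β5, the partner of β5i, was at 9.31, 13.6 and 9.57 CPM in IFNγ-treated alpha cells, against 15.5, 21.3 and 27.7 CPM in control alpha cells. Beta cells had 22.0, 21.6 and 23.4 CPM with IFNγ, against 27.6, 19.1 and 14.5 CPM in controls, and delta cells 10.4, 9.43 and 12.9 CPM with IFNγ, against 12.5, 15 and 10.6 CPM in controls. Only in alpha cells did the groups not overlap, with every treated library below every control, as for 8.93% of tested genes there (4.45% in beta and 7.80% in delta cells). The log2 fold changes were -0.99 (SE 0.26, adjusted p = 0.0919) in alpha, 0.13 (SE 0.26, adjusted p = 1) in beta and -0.21 (SE 0.26, adjusted p = 0.799) in delta cells. The alpha value was past the threshold in DESeq2 (-0.999, adjusted p = 0.0162), without the low-count filter (-0.96, adjusted p = 0.0273) and without alpha IFNγ 2 (-1.19, adjusted p = 0.0108). With the GC offset it was -0.44 (adjusted p = 0.61), and Psmb5 has the second highest GC content of the 8 genes, 57.0%.

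Psmb6, which encodes β1, was at 17.6, 25.1 and 19.5 CPM in IFNγ-treated alpha cells, against 30.8, 30.8 and 35.0 CPM in control alpha cells. Beta cells had 34.1, 31.9 and 32.4 CPM with IFNγ, against 36.5, 25.4 and 23.9 CPM in controls, and delta cells 11.8, 11.8 and 22.9 CPM with IFNγ, against 20.5, 23.7 and 16.3 CPM in controls. Here too the groups were apart in alpha cells alone. The log2 fold change of -0.64 there (SE 0.25, adjusted p = 0.172) passed only without alpha IFNγ 2 (-0.79, adjusted p = 0.0458), and the values in beta (0.20, SE 0.25, adjusted p = 1) and delta cells (-0.37, SE 0.25, adjusted p = 0.595) did not pass.

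Psmb7, which encodes β2, had the smallest differences of the 3 by log2 fold change, though -0.38 in alpha cells with the GC offset (not past the threshold). It was at 35.4, 33.0 and 38.8 CPM in IFNγ-treated alpha cells, against 37.3, 38.5 and 28.5 CPM in control alpha cells. In beta cells it was at 41.4, 39.6 and 34.3 CPM with IFNγ, against 41.3, 35.4 and 42.0 CPM in controls, and in delta cells at 27.8, 23.8 and 39.6 CPM with IFNγ, against 23.5, 27.9 and 32.7 CPM in controls. The groups overlapped in all cell types. The log2 fold changes were 0.04, -0.04 and 0.12 in alpha, beta and delta cells, with 95% intervals of -0.38 to 0.46, -0.46 to 0.38 and -0.30 to 0.54. Thus 0 of the 3 constitutive genes passed in any cell type in either direction, where 0.0346% of tested genes were lower in alpha, 0.00577% in beta and 0.185% in delta cells. At an unadjusted p under 0.05 edgeR gave Psmb5 and Psmb6 in alpha cells and none of the 3 in beta or delta cells. Of all 17338 tested genes, 3751 had such a p in alpha, 738 in beta and 2021 in delta cells. DESeq2 called Psmb5 in alpha cells, and limma-voom called none of the 3.

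The exchange within each catalytic pair was read in TPM, which scales counts by transcript length and allows levels of different genes in 1 library to be compared. Psmb8 made up 77.9%, 76.3% and 78.5% of the summed TPM of Psmb8 and Psmb5 in IFNγ-treated alpha cells, against 27.3%, 18.1% and 16% in control alpha cells. It made up 77.5%, 78.8% and 81.5% in IFNγ-treated beta cells, against 28.7%, 27.8% and 24.7% in control beta cells. It made up 74.9%, 86.4% and 83.9% in IFNγ-treated delta cells, against 32.6%, 40.6% and 32.2% in control delta cells. The lower of the pair in every control library, Psmb8 was thus the higher in every treated library. The share was highest among controls in delta cells, where it did not overlap the other control groups.

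Psmb9 started from a lower share of its pair. It made up 39.9%, 53.3% and 55.8% of the summed TPM of Psmb9 and Psmb6 in IFNγ-treated alpha cells, against 11.6%, 12.6% and 7.76% in control alpha cells. The shares were 63.3%, 64.7% and 56.9% in IFNγ-treated and 10.8%, 10.3% and 8.16% in control beta cells, and 53.3%, 66.3% and 55.4% in IFNγ-treated and 9.58%, 8.93% and 15.6% in control delta cells. Alpha IFNγ 1 was the only treated library in which Psmb6 was still above Psmb9. The effective length that RSEM gave Psmb9 ran from 385 bases in delta control 3 to 1428 bases in delta control 2, so its TPM also carries the estimate of which isoforms were present.

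Psmb10 made up 48.2%, 73.5% and 49.1% of the summed TPM of Psmb10 and Psmb7 in IFNγ-treated alpha cells, against 32.3%, 33.9% and 47.7% in control alpha cells. The shares were 78.2%, 73.5% and 80.9% in IFNγ-treated and 35.4%, 39.5% and 21.6% in control beta cells, and 68.0%, 77.9% and 72.2% in IFNγ-treated and 40.4%, 51.8% and 26.1% in control delta cells. Of the 3 induced catalytic subunits it had the highest share of its pair in the mean of every control group. In alpha cells its treated libraries barely cleared the controls, with 48.2% in alpha IFNγ 1 and 47.7% in alpha control 3.

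**Figure D2:**
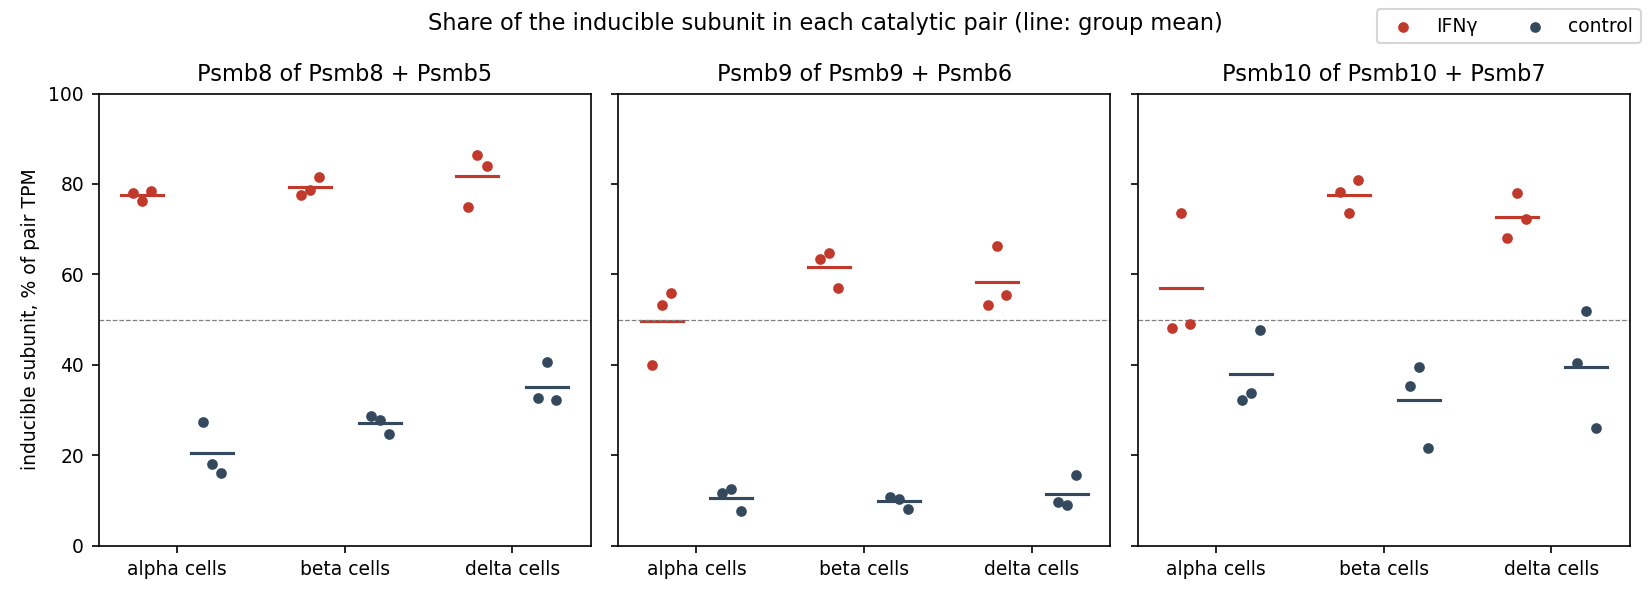
Share of the inducible subunit in the summed TPM of each catalytic pair, in percent, with 1 point per library, IFNγ libraries left of their controls and a line at the group mean of 3 libraries. For Psmb8 the IFNγ libraries lie between 74.9% and 86.4% and the controls between 16% and 40.6%, and for Psmb10 in alpha cells the lowest IFNγ library (48.2%) lies just above the highest control (47.7%).

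The ratio within each pair was tested over all 9 treated and 9 control libraries with an exact two-sided permutation test of the log2 TPM ratio, in which labels were exchanged within a cell type only. The ratio of Psmb8 to Psmb5 was 10.7-fold higher with IFNγ in the mean over cell types (3.42 on the log2 scale), that of Psmb9 to Psmb6 11.3-fold (3.50) and that of Psmb10 to Psmb7 4.14-fold (2.05). Each of the 3 had an exact permutation p of 0.00025, which is the smallest that the 8000 arrangements allow, and p = 0.00025 after adjustment over the 3 pairs in the same exact permutation test. These arrangements treat the cell types as independent of each other. Some alpha and beta libraries of both treatments shared file-name dates, so this may not hold and p may be too small. The effect of the shared dates on p was not tested. By cell type, the ratio of Psmb8 to Psmb5 was 13.8-fold higher in alpha, 10.3-fold in beta and 8.57-fold in delta cells. The ratio of Psmb9 to Psmb6 was 8.45-fold higher in alpha, 15-fold in beta and 11.3-fold in delta cells, and that of Psmb10 to Psmb7 was 2.23-fold, 7.54-fold and 4.22-fold higher. Each of these 9 single comparisons of 3 against 3 libraries had an exact permutation p of 0.1, the smallest the design allows, and differences between cell types in the ratios were not tested.

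Psmb10 and Psmb7 are the genes of highest and lowest GC content among the 8, so the GC trend was removed from the ratios. With each library's GC trend removed, a step added after the data were seen, the log2 ratio in alpha IFNγ 1, 2 and 3 was 0.84, 0.94 and 0.85, against -1.53, -1.62 and -0.93 in alpha controls 1 to 3. Without that step the same libraries had -0.11, 1.47 and -0.05, against -1.07, -0.97 and -0.13. The spread of the treated alpha libraries was thus smaller once the trend was removed, and the mean difference over the 3 cell types was 2.48 on the log2 scale.

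**Figure D3:**
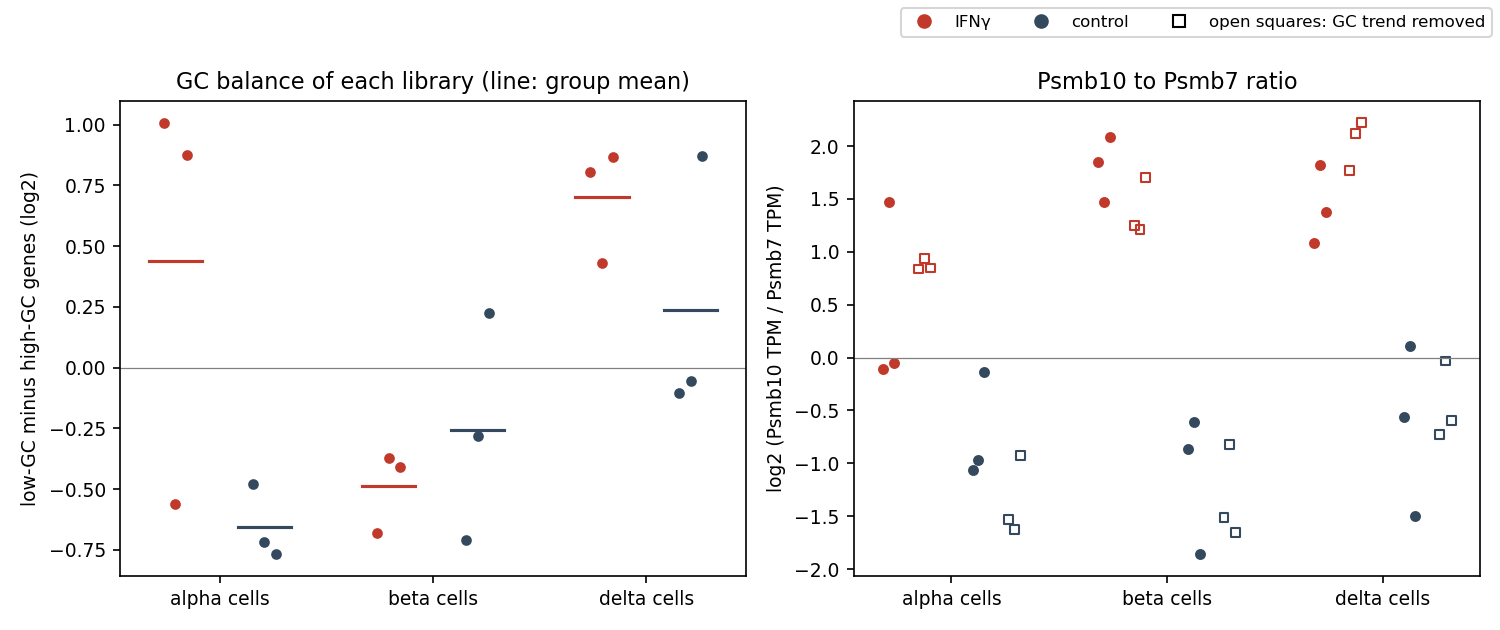
GC balance of each library (left, median log2 deviation of low-GC genes minus that of high-GC genes) and the log2 ratio of Psmb10 to Psmb7 TPM (right, filled points as measured, open squares with the GC trend removed), with IFNγ libraries left of controls. Alpha IFNγ 1 and 3, at 1.01 and 0.88 on the left, have ratios of -0.11 and -0.05 as measured and 0.84 and 0.85 with the trend removed.

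Summed over the 3 pairs, the inducible subunits made up 61.5 ± 5.99% of catalytic TPM in IFNγ-treated alpha cells and 22.5 ± 0.58% in control alpha cells (SD, n = 3 each, as below). They made up 73.4 ± 1.22% in IFNγ-treated and 22.8 ± 4.78% in control beta cells, and 72.3 ± 5.94% in IFNγ-treated and 28.1 ± 5.27% in control delta cells. The constitutive subunits summed to 42.4 ± 15.1 TPM in IFNγ-treated and 68.5 ± 13.4 TPM in control alpha cells, to 66.9 ± 2.35 TPM in IFNγ-treated and 56.2 ± 5.35 TPM in control beta cells, and to 29.5 ± 2.54 TPM in IFNγ-treated and 39.1 ± 7.33 TPM in control delta cells. Every delta control (24.0% to 34.0%) lay above every alpha control (21.8% to 22.9%), and the beta controls (17.4% to 26.6%) overlapped both, with no test run between them. The summed TPM of both kinds had its highest mean in treated beta cells, at 252 ± 20.1 TPM. These TPM sums carry no TMM scaling, so between groups they can differ from CPM in direction. Psmb7 had means of 16.4 TPM in IFNγ-treated and 19.2 TPM in control alpha cells, but 35.7 and 34.8 CPM. In delta cells it had 11.55 and 12.63 TPM but 30.4 and 28.0 CPM, and in beta cells 20.3 and 18.8 TPM but 38.4 and 39.6 CPM.

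Whether the cell types differed in their response was tested with the difference of the IFNγ effects. None of the 8 genes passed in any of the 3 pairs of cell types, and edgeR called 0 of all 17338 genes (0.00%) in each, although 2305 genes had an unadjusted p under 0.05 between alpha and beta, 822 between delta and beta and 783 between delta and alpha cells. DESeq2 called 9, 4 and 5 genes in these, and limma-voom 0, 0 and 1. Of the 8 genes, those with an unadjusted p under 0.05 in edgeR between alpha and beta cells were Psmb10 (0.00677), Psmb5 (0.00684), Psmb6 (0.0275), Psmb9 (0.0332) and Psme2 (0.044). Between delta and alpha cells Psmb5 had such a p (0.0497), and between delta and beta cells none did. For all 5 inducible genes the effect in alpha cells was numerically below that in beta cells, by -0.50 for Psmb8 to -1.47 for Psmb10 (95% interval -2.48 to -0.46, adjusted p = 0.369). The difference of Psmb10 passed without alpha IFNγ 2 (-1.96, adjusted p = 0.0339), as did that of Psmb5 (-1.32, adjusted p = 0.0437), and that of Psmb10 without the low-count filter (-1.41, adjusted p = 0.00821). Over all genes, leaving out alpha IFNγ 2 gave 674 higher and 701 lower of 18038, and no filter gave 408 and 131 of 32335. With the GC offset the differences between alpha and beta cells were smaller, at -0.045 for Psmb8, -0.21 for Psme1, -0.78 for Psmb9 and -0.83 for Psmb10 and Psme2. Between delta and beta cells the differences ran from -0.41 for Psmb8 to -0.91 for Psmb9, and between delta and alpha cells from 0.09 for Psmb8 (-0.088 with the GC offset) to 0.96 for Psmb10. Their intervals were wide, so these values do not show that the cell types responded alike.

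The level reached with IFNγ was also compared directly. In IFNγ-treated alpha cells 5 of the 8 genes were lower than in IFNγ-treated beta cells, a contrast in which 27.1% of tested genes were called in either direction. They were Psmb10 (log2 difference -1.41, SE 0.34, adjusted p = 0.0045), Psmb9 (-1.17, SE 0.34, adjusted p = 0.0149), Psmb8 (-1.15, SE 0.27, adjusted p = 0.00438), Psmb5 (-1.04, SE 0.26, adjusted p = 0.00661) and Psme2 (-0.94, SE 0.32, adjusted p = 0.038). In IFNγ-treated delta cells 4 of 8 were lower than in IFNγ-treated beta cells, where 36.4% of tested genes were called in either direction. These were Psme2 (-1.08, adjusted p = 0.014), Psmb6 (-1.07, adjusted p = 0.00309), Psmb5 (-1.03, adjusted p = 0.00584) and Psmb9 (-0.88, adjusted p = 0.0475). Between IFNγ-treated delta and alpha cells 0 of 8 passed in edgeR, DESeq2 or limma-voom, where edgeR called 8.87% of tested genes higher and 7.13% lower. There 1 of the 8, Psmb8, had an unadjusted p under 0.05 in edgeR (0.0395), as did 4736 of all 17338 tested genes. Several of these calls were lost when 1 library was left out. Those of Psmb9 and Psme2 between alpha and beta cells were lost without alpha IFNγ 1 (-0.96 and -0.74) or alpha IFNγ 3 (-1.09 and -0.87). Psme2 there was also lost without beta IFNγ 1, 2 or 3 (-0.89, -0.97 and -0.97, adjusted p at most 0.0973). Psme2 between delta and beta cells was lost without delta IFNγ 1 (-0.83). The call of Psmb9 between delta and beta cells was lost without any 1 of 11 libraries (adjusted p 0.0508 to 0.19). Its log2 difference in these fits ran from -0.937 to -0.655. Between delta and beta cells, the GC offset ended the calls of Psmb5 (-0.48, adjusted p = 0.0875) and Psmb9 (-0.44, adjusted p = 0.162). Date as a term ended all 4, with Psmb6 at -1.11 (adjusted p = 0.0938), Psmb5 at -0.68 (adjusted p = 0.474), Psme2 at -1.10 (adjusted p = 0.0641) and Psmb9 at -0.84 (adjusted p = 0.199). Psmb6, Psme2 and Psmb9 hardly changed in size there, while Psmb5 went from -1.03 to -0.68. With 9 dates the fit has little left to estimate the spread, and why the calls ended was not tested.

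The same comparison was made among the controls. Between control alpha and control beta cells 0 of 8 passed in edgeR, DESeq2 or limma-voom, where edgeR called 9.56% of tested genes higher and 10.1% lower. Of the 8, Psmb8 alone had an unadjusted p under 0.05 in edgeR (-0.65, adjusted p = 0.145), beside 5468 of all 17338 tested genes. Between control delta and control beta cells 0 of 8 passed with these tools, where edgeR called 11.4% higher and 9.11% lower. Psmb5 (-0.68, adjusted p = 0.0751) and Psmb7 (-0.50, adjusted p = 0.0895) had an unadjusted p under 0.05 in edgeR, beside 5555 of all 17338 tested genes. Between control delta and control alpha cells 1 of 8 passed, Psmb5 (-0.76, SE 0.26, adjusted p = 0.0473), where edgeR called 10.9% higher and 8.77% lower. Leaving out any 1 of 11 libraries ended that call (adjusted p 0.0508 to 0.23), as did the replicate block (-0.76, adjusted p = 0.0594) and the GC offset (-0.34, adjusted p = 0.297). Psmb6 was at 16.3 to 23.7 CPM in control delta and 30.8 to 35.0 CPM in control alpha cells. The difference passed in DESeq2 (-0.68, adjusted p = 0.0425) and limma-voom (-0.69, adjusted p = 0.0446) but not in the main edgeR fit (adjusted p = 0.0622). In edgeR it passed with date as a term (-0.835, adjusted p = 0.045), without alpha IFNγ 2 (adjusted p = 0.0491) and without delta IFNγ 3 (adjusted p = 0.0245).

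The other genes of the proteasome were read as lists, to see whether the whole particle moved with its induced subunits. Of 44 tested genes for other core subunits, the regulatory 19S particle, assembly chaperones, other activators and associated enzymes, 0 were called in alpha cells, 1 in beta cells and 0 in delta cells (0.940%, 1.06% and 1.21% of all tested genes were higher), with median log2 fold changes of 0.11, 0.15 and -0.06 beside -0.01, 0.00 and -0.05 over all tested genes. At an unadjusted p under 0.05 edgeR gave 7, 3 and 4 of them (beside 3751, 738 and 2021 of all 17338 tested genes), while DESeq2 called 1, 2 and 0 and limma-voom 0, 0 and 0. The 1 was Pomp, the chaperone that completes the core and is known to favour immunoproteasome assembly, with 56.2 ± 5.58 CPM in IFNγ-treated and 32.9 ± 1.87 CPM in control beta cells (0.77 on the log2 scale, SE 0.18, adjusted p = 0.0479). Its call was lost without any 1 of 14 libraries (adjusted p 0.056 to 0.328), in limma-voom (0.78, adjusted p = 0.0545) and without the low-count filter (0.76, adjusted p = 0.163).

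Within these lists, 0 of 7 tested α-ring subunits passed in any cell type, with medians of 0.48, 0.16 and 0.22 in alpha, beta and delta cells. The lowest p among them was that of Psma7 in beta cells (0.70, SE 0.17, adjusted p = 0.063), which passed with the replicate block (0.69, adjusted p = 0.0479), in DESeq2 (0.67, adjusted p = 0.0117) and without delta control 3 or delta IFNγ 3. None of the 4 other β-ring subunits passed, with Psmb1 lowest in p (-0.54 in delta cells, SE 0.22, adjusted p = 0.344). None of the 6 ATPases of the 19S base passed (Psmc6 0.79 in alpha cells, SE 0.36, adjusted p = 0.214), nor did any of the 13 other 19S subunits, where the ubiquitin receptor gene Adrm1 had -0.70 in alpha cells (SE 0.19, adjusted p = 0.101). Psmc6 and Adrm1 passed without alpha IFNγ 2 (adjusted p = 0.0429 and 0.00715). Of the other activators, Psme3 (PA28γ, the nuclear relative of PA28αβ) had log2 fold changes of -0.26, 0.02 and -0.14, and Psme4 (PA200) had 0.38 in alpha cells (SE 0.24, adjusted p = 0.344). Among the associated enzymes the deubiquitinase gene Uchl5 had 1.10 in alpha cells (SE 0.37, adjusted p = 0.154), past the threshold without alpha IFNγ 2 (adjusted p = 0.021). Psmb11, the thymus-specific β5t, had at most 2 expected counts over the libraries of a group and was not tested.

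**Figure D4:**
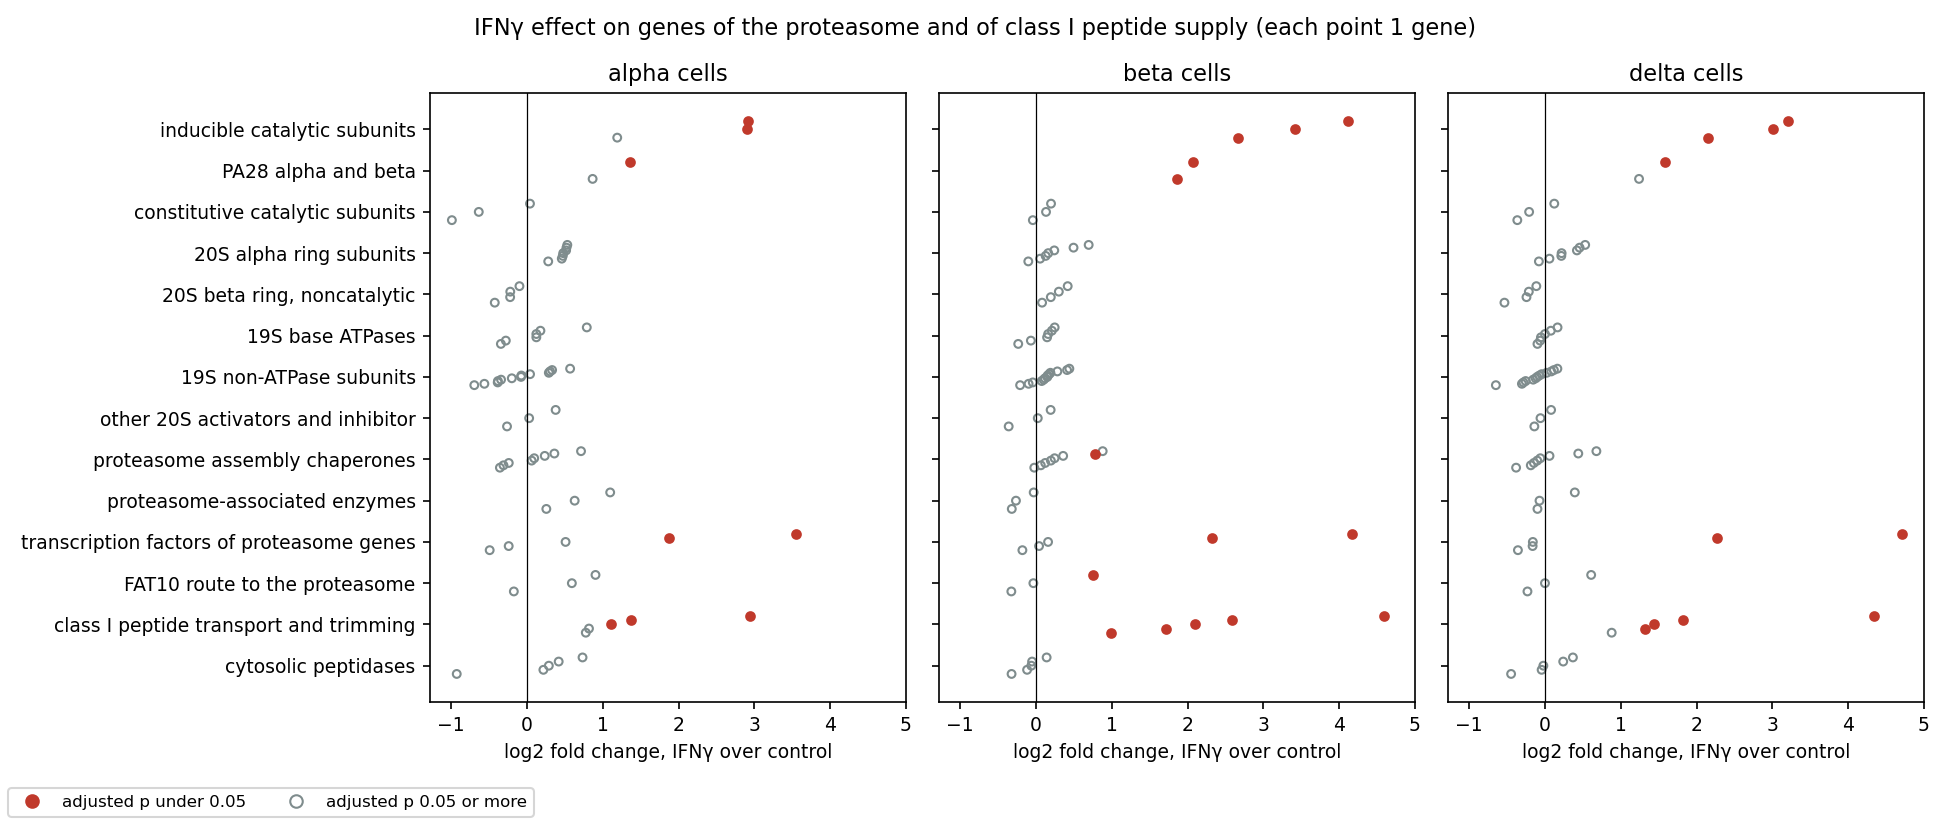
Log2 fold change, IFNγ over control, of each tested gene of the proteasome and class I peptide lists in alpha, beta and delta cells, with 1 point per gene and filled red points for an adjusted p under 0.05 (edgeR). The induced catalytic subunits, the factors Irf1 and Nlrc5 and the transporter gene Tap1 stand to the right, up to 4.72 for Nlrc5 in delta cells, while the 19S and noncatalytic core genes lie between -0.70 and 0.79.

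Of 5 tested genes for transcription factors of proteasome genes and their processing, the same 2 were higher in each cell type, Irf1, an interferon-induced transcription factor, and Nlrc5, the transactivator of class I genes. Irf1 was at 139 ± 13.3 CPM in IFNγ-treated and 37.7 ± 3.74 CPM in control alpha cells (1.88 on the log2 scale, SE 0.22). It was at 190 ± 41.9 CPM in IFNγ-treated and 38.0 ± 4.87 CPM in control beta cells (2.32, SE 0.22), and at 180.0 ± 52.5 CPM in IFNγ-treated and 37.3 ± 5.82 CPM in control delta cells (2.27, SE 0.22). Nlrc5 rose by 3.55, 4.18 and 4.72 in alpha, beta and delta cells. The remaining 3, Nfe2l1, which maintains the constitutive subunits, its processing protease Ddi2 and Nfe2l2, did not pass. Nfe2l1 had -0.49, 0.16 and -0.16, with adjusted p of 0.193, 1 and 0.806 in edgeR.

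The class I peptide supply genes, Tap1 and Tap2 (the transporter), Tapbp (tapasin), Tapbpl (its relative TAPBPR) and Erap1 (the trimming peptidase of the endoplasmic reticulum), had 3 of 5 called higher in alpha, 5 of 5 in beta and 4 of 5 in delta cells, the same counts as the inducible proteasome genes, beside 0.940%, 1.06% and 1.21% of all tested genes. Tap1 and Tapbp were higher in all cell types, Tapbp by 1.11, 2.09 and 1.44. Tap2, beside Psmb8 on chromosome 17, was at 38.4 ± 18.1 CPM in IFNγ-treated and 22.4 ± 8.12 CPM in control alpha cells (0.78, SE 0.37, adjusted p = 0.231) and rose in beta (2.59, SE 0.39) and delta cells (1.82, SE 0.38). Tapbpl had 0.82 in alpha cells (SE 0.23, adjusted p = 0.112) and rose by 1.72 in beta and 1.31 in delta cells, and Erap1 rose by 1.37 in alpha and 0.99 in beta cells and had 0.88 in delta cells (SE 0.23, adjusted p = 0.0822). The call of Tapbp in alpha cells was lost without any 1 of 7 libraries (adjusted p 0.0504 to 0.171), and that of Tap2 in delta cells without any 1 of 3 (delta IFNγ 2, delta control 1 or delta control 3). None of the 5 cytosolic peptidases that trim proteasome products passed, Tpp2 being lowest in p (0.73 in alpha cells, SE 0.29, adjusted p = 0.178).

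FAT10, the ubiquitin-like tag encoded by Ubd, sends proteins to the proteasome, and its gene was singled out after its values were seen. Ubd had 29 expected counts over the treated alpha libraries, 24 over the treated beta libraries and 27 over the treated delta libraries, and 0 over the controls of each. With 3 counts put in place of the 0 of each control group, it was 7.46-fold higher with IFNγ in alpha, 7.23-fold in beta and 9.22-fold in delta cells. The treated counts entered as observed, so their own counting error and the spread between libraries are not covered. Ubd was too low to be tested. Of the 24 counts in treated beta cells, 20 came from beta IFNγ 2, without which the value was 1.95-fold. Of the 27 in treated delta cells 18 came from delta IFNγ 3, without which it was 5.93-fold. Nub1, whose protein binds FAT10 and brings it to the proteasome, was at 91.5 ± 6.08 CPM in IFNγ-treated and 54.4 ± 4.82 CPM in control beta cells (0.75, SE 0.17, adjusted p = 0.0267). Leaving out any 1 of the 6 beta libraries ended that call (adjusted p 0.0601 to 0.245). Nub1 had 0.59 in alpha (SE 0.16, adjusted p = 0.107) and 0.61 in delta cells (SE 0.17, adjusted p = 0.091), where DESeq2 called it.

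The genes whose pattern over the 18 libraries was closest to each inducible gene were found by the root mean square difference of centred log2 CPM, among tested genes outside the 8. For Psmb8 they were Il18bp (0.37), H2-T23 (0.42) and H2-Q4 (0.45), and for Psmb9 H2-T23 (0.42), Oas1a (0.48) and H2-Q4 (0.49). For Psmb10 they were Tap2 (0.30), H2-D1 (0.32) and H2-K1 (0.33). For Psme1 they were Irf9 (0.33), Nmi (0.35) and Trim21 (0.37), and for Psme2 Tap2 (0.38), Shisa5 (0.42) and Tapbpl (0.42). These distances are on the log2 scale over the same libraries, share their depth and GC trends, and are given as a description.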

How the data were processed

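RNA of 18 libraries was analysed, 3 for each of 6 groups taken from the labels. The authors made rRNA-depleted, random-primed, strand-marking libraries, used STAR 2.5.2b for alignment to GRCm38 and RSEM for quantification, whose version is not stated. The deposited files hold the RSEM expected counts per gene used here, the TPM values of the authors and the effective lengths (another column, in bases), and their FPKM was not used here. Identifiers were matched to GENCODE M21 symbols (99.5% of 55487), whereas the study names a later release. Totals ran from 6128845 to 11531734 counts (median 8697388). The SEs and intervals of the gene tests came from the edgeR quasi-likelihood fit, which includes the spread between libraries. The fold values for Ubd put 3 counts in place of 0 control counts. They cover neither the counting error of the treated counts nor the spread between libraries. The study states that each n was an independent biological sample.

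Rounded expected counts of all libraries entered 1 fit in edgeR 4.0.16 (R 4.3.3) with a mean per group, filterByExpr (minimum count 10) and TMM scaling, and the quasi-likelihood F-test was adjusted over 17338 genes by Benjamini-Hochberg, with a threshold of 0.05. The study fitted DESeq2 1.32.0 with a batch that the labels do not give, so date was an alternative only. With 9 dates over 18 libraries, 5 of them alone on theirs, the date fit has little left to estimate the spread. CPM used TMM-scaled totals, with a prior count of 2 on the log2 scale. Log2 TPM ratios of the 3 pairs were tested by exact permutation within cell types, without pseudocount and with the cell types treated as independent. Near-identical transcripts were searched with BLAST 2.17.0 (at least 90% identity over 150 bases). The fits were tested on simulated data. Alternatives were DESeq2 1.42.0, limma-voom 3.58.1, DESeq2 size factors, no low-count filter, fewer cell types, replicate block, date, GC offset (lowess span 0.3) and each library left out. For the ratios they were expected counts, 1 TPM added, the block, shared dates and each library left out. The block with GC offset and the GC trend of ratios were added after seeing the data.

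Samples of the same number were checked for pairing by the correlation of their deviations from group means. It was 0.22, 0.19 and 0.13 in beta cells, where each was above 0.1 and numbers 1 and 2 also share dates, so the numbers were taken to pair there. It was 0.09, 0.05 and -0.19 in alpha and -0.05, 0.20 and 0.28 in delta cells. Between different numbers it ran from -0.2 to 0.049 in beta, -0.234 to 0.212 in alpha and -0.344 to 0.251 in delta cells. In alpha cells the shared dates join IFNγ 2 with control 1 and IFNγ 3 with control 2. The main fit and the main permutation test carried no pair term. The replicate block, an alternative, joins equal numbers in all cell types.

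The 8 genes and the gene lists were chosen with earlier results of these data known. The text names all 8, from each list up to 4 members past the threshold by size of change or else the one with the lowest p, and the 3 nearest patterns, and other genes only as members of a list or as markers. Paaf1, a chaperone in the lists, was not matched, and 1 further gene is not reported here.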

Additional observations from a re-analysis of the deposited data

How the results depend on the processing

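The 3 pair ratios kept their direction and a permutation p under 0.05 in every alternative that gives a test, with log2 values of 1.88 to 3.74, and on shared dates alone they were 3.38, 3.52 and 2.06. With the replicate block their p was 0.00391, the smallest it allows. These permutation p-values also treat the cell types as independent, although some alpha and beta libraries shared dates. The number of inducible genes called stayed at 5 in beta cells in every fit. In alpha cells it was 5 without the low-count filter and with the date term. It was 4 there with the GC offset, with block and GC offset and in DESeq2. In delta cells it was 5 without the filter, with the GC offset, with block and GC offset and in DESeq2. With the date term it was 3 in delta cells. With a library left out it was 2 to 3 in alpha and 4 to 5 in delta cells. The replicate block changed no call of an IFNγ effect among the 8 genes. Of the 8 genes, the response difference between alpha and beta cells held 1 call without the filter and 0 to 2 with a library left out. Control alpha against control beta held 1 with the date term, with the GC offset and with block and GC offset. Control delta against control beta held 3 with the date term, 1 with the GC offset, with block and GC offset or with only the cell types compared, and 0 to 1 with a library left out. Control delta against control alpha held 0 without the filter, with only the cell types compared and with the block, 2 with the GC offset, with block and GC offset, in limma-voom and in DESeq2, and 0 to 2 with a library left out. With IFNγ, alpha against beta held 3 to 6 and delta against beta 2 to 5 with a library left out, delta against beta 0 with the date term, and delta against alpha 2 with the GC offset and with block and GC offset and 0 to 1 with a library left out. The cause was not tested.

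Values near 0 changed sign. Psmb7 was -0.052 (date), -0.38 (GC offset) and -0.38 (block and GC offset) in alpha, 0.11, 0.022 and 0.021 in beta, and -0.22, -0.039 and -0.034 in delta cells, and with a library left out it ran from -0.085 to 0.12, from -0.12 to 0.029 and from -0.12 to 0.27. Psmb5 was -0.16 in beta (date, and -0.062 to 0.41 with a library left out) and 0.20, 0.046 and 0.028 in delta cells (date, GC offset, block and GC offset). Psme4 was -0.17 in alpha cells with either GC offset. With the date term, response differences of 0.004 for Psmb8 (alpha minus beta), 0.34 for Psmb9 and 0.94 for Psmb10 (delta minus beta) and -0.42 for Psmb8 (delta minus alpha) were reversed. With the GC offset, delta minus alpha was -0.088 for Psmb8 (-0.12 with the block) and -0.004 for Psme1, and with a library left out it ran from -0.073 to 0.34 for Psmb8, from -0.052 to 0.65 for Psmb9 and from -0.13 to 0.40 for Psme1.

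Over all genes, leaving out alpha IFNγ 2 gave 1798 higher and 1959 lower calls in alpha cells, no filter gave 990 and 446, and DESeq2 gave 403 and 157, against 163 and 6 as reported. In the other fits over all libraries 3 to 23 were lower. Beta cells had 0 to 80 lower, and delta cells 415 higher without the filter, 83 with the date term and 6 to 177 lower. Psmb9 was at 1.97 to 5.84 CPM in controls, so its control values carry the counting error of low counts.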
